A study of Mus musculus with 20 samples.

Results

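DNA replication licensing is the step that prepares chromosomes to be copied, and 10 genes of this machinery were followed in the mouse diaphragm after fibres had been placed in the pleural cavity. The genes were chosen by name, namely Mcm2, Mcm3, Mcm4, Mcm5, Mcm6, Mcm7, Mcm10, Cdc6, Cdt1 and Pcna. They were read by 12 of the 55681 noncontrol probes, which carry 34797 gene names, since Mcm3 and Cdc6 each had 2 probes and the other genes had 1. All 12 probes were among the 36931 that were bright enough to be tested. RNA came from the diaphragms of 20 female C57Bl/6 mice, 4 in each of 5 groups, which were 8 weeks old when injected and were examined 12 weeks later. The control mice received 100 µL of 0.5% BSA/saline, the vehicle of all groups. SFA mice received 25 µg of amosite asbestos shortened by ball milling, and LFA mice received 25 µg of long amosite fibres, both made from the same batch of mineral. NTS and NTL mice received 5 µg of short or long carbon nanotubes, so asbestos and nanotubes were given at different doses. The RNA was taken from whole tissue, in which more cells of a dividing type and more RNA per cell cannot be told apart.

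In a cell that leaves quiescence, the origin recognition complex marks the sites where copying will start. Cdc6, an ATPase, and Cdt1 then bring the ring-shaped Mcm2 to Mcm7 helicase to those sites, where it waits inactive until S phase begins. Mcm10 helps the loaded helicase to open, and Pcna is the sliding clamp that holds DNA polymerases on the template. Resting tissue such as adult muscle keeps little of this machinery, and E2F transcription factors are known to switch on many of its genes before S phase.

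The promoters of these genes are shown because several of them carry the letters bound by E2F. RefSeq promoters on build GRCm38.p6, each running from 250 bases before the start site to 50 after it, were matched for 9 of the 10 genes, with 10 promoters in all because Mcm7 has 2. Mcm4 was not matched. The E2F letters TTTCCCGC, TTTCGCGC, TTTGCCGC and TTTGGCGC were searched on both strands. They were found in 6 of the 10 promoters (60%), those of Mcm3, Mcm5, Mcm6, Mcm7, Cdc6 and Cdt1, against 744 of 32851 promoters of all genes (2.26%). In the promoters of 64 other replication genes, described further on, the share was 29.3%. The windows of Mcm2, Mcm10 and Pcna did not hold these letters. Matches are in capitals. Those of Cdc6, Mcm5 and Mcm6 lie before the start site, and those of Mcm3 and Cdt1 lie just after it. In Mcm5 and in the first block of Mcm6, matches on opposite strands overlap.
Cdc6 (chr11:98907991-98908090, + strand): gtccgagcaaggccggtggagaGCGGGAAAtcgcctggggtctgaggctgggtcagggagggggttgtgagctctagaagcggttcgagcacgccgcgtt
Mcm5 (chr8:75109339-75109438, + strand): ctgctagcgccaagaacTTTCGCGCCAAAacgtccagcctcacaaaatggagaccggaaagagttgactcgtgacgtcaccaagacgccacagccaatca
Mcm6 (chr1:128359726-128359825, - strand): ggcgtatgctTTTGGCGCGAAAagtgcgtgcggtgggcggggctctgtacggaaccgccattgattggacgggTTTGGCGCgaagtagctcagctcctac
Mcm3 (chr1:20820265-20820294, - strand): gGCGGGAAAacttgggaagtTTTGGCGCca
Cdt1 (chr8:122568033-122568062, + strand): gcgggaactaccttTTTGGCGCcatggcgc

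Other promoter letters were less particular to these genes. CCAAT, the letters read by NF-Y, was found on either strand in 80% of the 10 promoters and in 37.4% of all promoters. TTTGAA, the core of the cell cycle homology region of many mitotic genes, was found in 10% and 17.9%. The median GC content was 57.5% in the 10 promoters and 52.7% in all.

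A level here is the log2 intensity of a probe minus that of the array's 75th percentile, so they compare mice for 1 gene but not 1 gene with another. The arrays differed in brightness, with 75th percentiles from 294 to 996 intensity units, and no spot was saturated. Every NTL array, at 530 to 996, was brighter than every NTS array, at 380 to 487, so brightness goes with group in that comparison. The labelled tissue was borne out by its markers, since all 8 skeletal muscle markers were well above background on all 20 arrays. Liver markers were also present, and a score of 8 liver genes (mean log2 level relative to the control mean) ran from -3.07 to 7.72. It exceeded 6 on 5 arrays, which were SFA replicate 2, LFA replicates 1 and 3, and NTS replicates 3 and 4, so counts of calls are also given without them. The lung surfactant genes Sftpc, Sftpb and Sftpa1 were well above background on 3, 3 and 1 of the 20 arrays. The remaining lung marker, Scgb1a1, was bright enough to be tested. A lung score, which rests on it alone, ran from -1.53 to 0.87. Slides were unevenly filled, with 3 of 4 NTL arrays on slide 3, which held no NTS array.

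Mean levels of the licensing genes were highest with long fibres. In 9 of the 10 genes the 2 highest group means were those of LFA and NTL, and in 9 the lowest was that of NTS, Mcm10 being the exception to both. The clearest difference was between the nanotube groups. Cdc6, Mcm5 and Mcm3 rose in NTL compared with NTS by the rule that follows. Only Mcm10 had a lower mean, with a log2 change of -0.54, and it did not pass. To be called, a gene needed a 2-fold difference or more together with a limma p, adjusted over all 36931 probes, of under 0.05. By that rule 3 of 10 licensing genes were higher in NTL than in NTS, beside 4.89% of all probes, and 0 were lower, beside 2.71%.

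**Figure D1:**
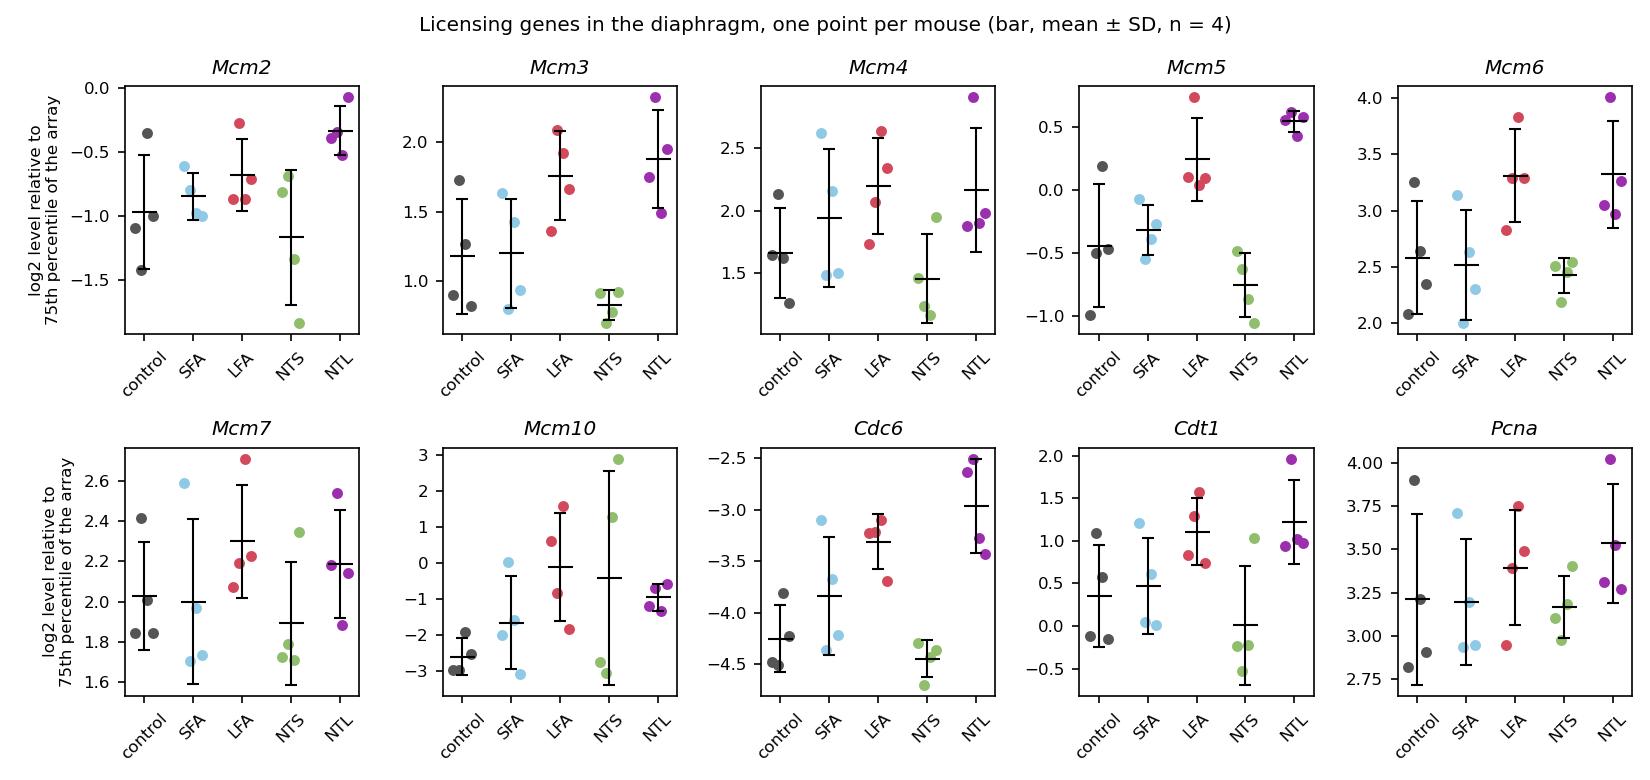
Log2 level relative to the 75th percentile of the array (vertical axis, its own scale for each gene) for the brightest probe of each licensing gene in the 5 groups (horizontal axis). Each point is 1 mouse and bars give the mean ± SD (n = 4). NTL points lie above all NTS points for Mcm2, Mcm3, Mcm5, Mcm6 and Cdc6, and Mcm10 is split in NTS.

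Cdc6, which loads the helicase, was read by 2 dim probes. The brighter one (NCBI37, chr11:98782986-98783045) was well above background on 17 of 20 arrays. Its log2 level was -4.48, -4.51, -3.81 and -4.22 in the control mice, and -4.29, -4.70, -4.43 and -4.37 in the NTS mice. In the NTL mice it was -2.64, -2.51, -3.27 and -3.43. Every NTL mouse thus stood above every control and every NTS mouse. The rise was 2.80-fold over NTS (log2 change 1.48, SE 0.29, limma adjusted p = 0.00355). Over control it was 2.45-fold (log2 change 1.29, SE 0.29, limma adjusted p = 0.0113). The LFA mice, at -3.23, -3.22, -3.10 and -3.70, also lay above all control mice. Their change of 0.94 on the log2 scale (SE 0.29) did not pass (limma adjusted p = 0.0683). SFA mice ranged from -4.37 to -3.11 and overlapped the control mice. The other Cdc6 probe was not well above background in any NTS mouse, and by that bound NTL was at least 1.78-fold higher, with a limma adjusted p of 0.139. With normexp correction, which also adds an offset of 50 intensity units, the log2 change was 0.25 in NTL against both NTS and control (limma adjusted p of 0.333 and 0.350).

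Mcm5, a subunit of the helicase ring (probe at NCBI37, chr8:77651350-77651410), showed little spread among the NTL mice. Its log2 level was 0.55, 0.61, 0.43 and 0.57 in NTL. In NTS it was -0.48, -0.63, -0.86 and -1.06, and in the control mice it was -0.99, -0.50, 0.19 and -0.47. NTL did not overlap either group. Mcm5 rose 2.46-fold over NTS (log2 change 1.30, SE 0.25, limma adjusted p = 0.00277). Against control the log2 change of 0.98 passed the adjusted p (limma, 0.0205) but stayed just under 2-fold, at 1.98-fold. That pass was lost in limma with slide as a block (0.79, adjusted p = 0.0860), with array brightness as a covariate (adjusted p = 0.0951) and in a fit of the compared groups alone (adjusted p = 0.0736). The LFA mice stood at 0.10, 0.73, 0.04 and 0.10, and the SFA mice at -0.08, -0.54, -0.39 and -0.27. These groups did not overlap, and the log2 difference of 0.56 (SE 0.25) did not pass after adjustment (limma adjusted p = 0.350).

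Mcm3, another ring subunit, was read by 2 probes that cover nearly the same stretch (NCBI37, chr1:20793136-20793195 and chr1:20793119-20793178). They share 43 bases with 1 mismatch, A14G, counted from the 5′ end of the stretch shown, with the base of the brighter probe first and the base concerned in capitals.
Mcm3 brighter probe: aagctttctttgcAattagactagtatgt
Mcm3 other probe: aagctttctttgcGattagactagtatgt
On the brighter probe the log2 level was 1.75, 2.32, 1.49 and 1.95 in NTL and 0.92, 0.70, 0.78 and 0.93 in NTS, with no overlap. The rise of NTL over NTS was 2.07-fold on the brighter probe (log2 change 1.05, SE 0.26, limma adjusted p = 0.0190) and 2.29-fold on the other (limma adjusted p = 0.0102). Control mice stood at 0.90, 1.73, 1.27 and 0.82, and the change of 0.70 on the log2 scale in NTL against control did not pass (limma adjusted p = 0.112).

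The remaining genes did not pass in NTL compared with NTS. Cdt1, the partner of Cdc6 in loading, had a larger difference than Mcm3 but a wider spread. Its log2 level was 0.94, 1.96, 1.02 and 0.98 in NTL and -0.24, -0.53, -0.22 and 1.03 in NTS, where replicate 4 lay inside the NTL range. The log2 change was 1.22 (SE 0.39, limma adjusted p = 0.0590). Mcm6 (log2 change 0.90, limma adjusted p = 0.0814) and Mcm2 (0.84, limma adjusted p = 0.0634), both of the ring, had no NTL mouse within the NTS range. Mcm2 is shown by its levels of -0.39, -0.34, -0.53 and -0.07 in NTL against -0.81, -0.69, -1.33 and -1.84 in NTS. Its lowest NTS levels were on replicates 3 and 4, which are among the 5 arrays rich in liver transcripts. Without those arrays the log2 change of Mcm2 was 0.42. The smallest positive log2 changes were those of Mcm4 (0.71), Pcna (0.37) and Mcm7 (0.30), with limma adjusted p from 0.173 to 0.487. In all, 9 of 10 genes were above 0, beside 35.7% of all probes, with a median log2 change of 0.87 against -0.26 for all probes. The unadjusted p was under 0.05 for 7 of them, beside 9.84% of probes, and the groups did not overlap for 5, beside 7.61%. With quantile normalization the median of all probes moved from -0.26 to -0.04, and the same 9 genes were above 0.

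**Figure D2:**
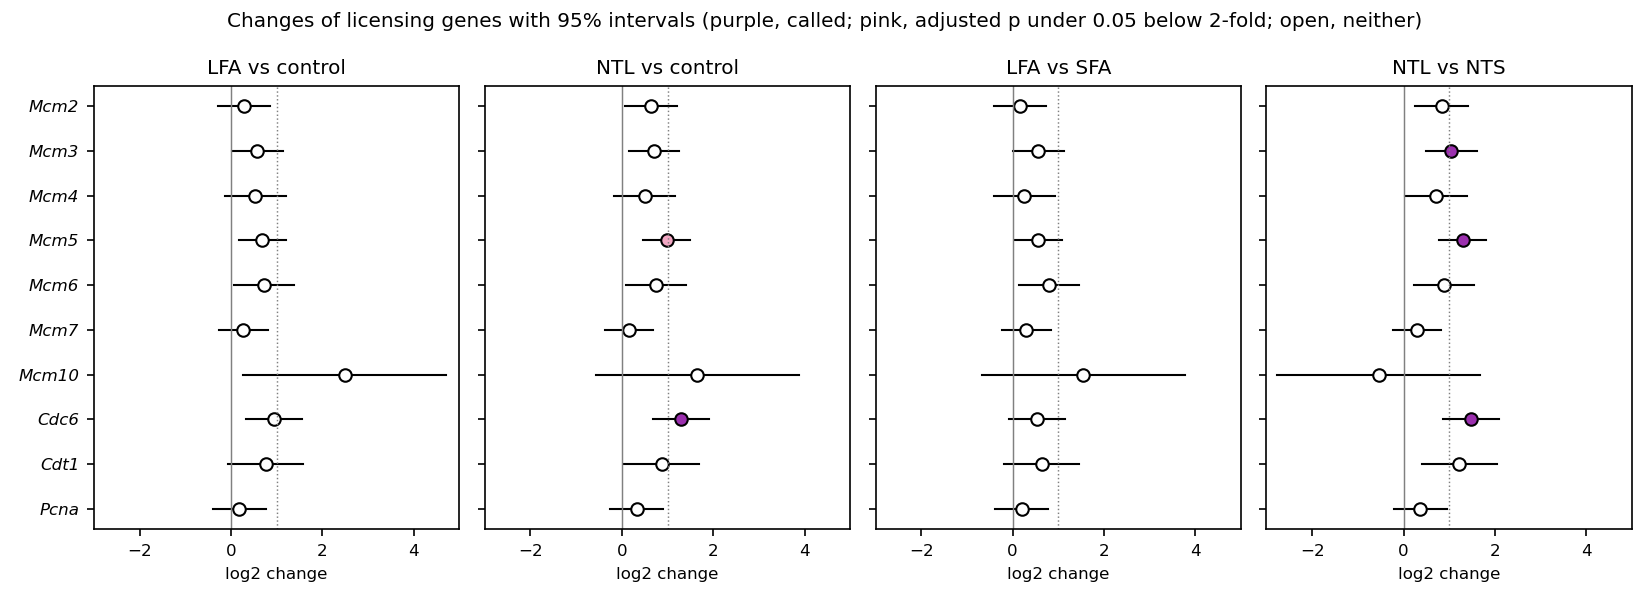
Log2 change (horizontal axis) with its 95% interval for each licensing gene in LFA against control, NTL against control, LFA against SFA and NTL against NTS. Purple points passed both thresholds, as Cdc6, Mcm5 and Mcm3 did in NTL against NTS and Cdc6 in NTL against control. The pink point passed the adjusted p below 2-fold, open points passed neither, and the dotted line marks 2-fold.

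NTL and NTS shared only slide 2, which held 1 NTL and 2 NTS arrays, and there the differences were 1.86 for Cdc6, 1.11 for Mcm5 and 0.94 for Mcm3 on the log2 scale. With slide as a block in limma, Cdc6 stayed called (log2 change 1.48, adjusted p = 0.0485) and the others did not, at 0.98 for Mcm5 (adjusted p = 0.0778) and 0.91 for Mcm3 (adjusted p = 0.169). Without the 5 arrays rich in liver transcripts, NTS was left with replicates 1 and 2, both on slide 2. Cdc6, Mcm5 and Mcm3 were then called at 1.53, 1.10 and 1.07, and Cdt1 at 1.61 (limma adjusted p = 0.0265). Mcm10 also passed, through the choice of arrays described further on, so the count was 5. Of all probes 5.37% were then called higher, against 4.89% in all mice.

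Against control, the median change with either long fibre was smaller than the 0.87 of NTL against NTS. In NTL compared with control all 10 genes were above 0 (34.7% of probes were), with a median log2 change of 0.72 against -0.25 for all probes. One of them, Cdc6, was called (3.63% of probes), and with Mcm5 2 passed the adjusted p at any fold (3.8% of probes). An unadjusted p under 0.05 was found for 6 (7.68% of probes), and NTL lay wholly above control for Mcm5, Mcm10 and Cdc6 (6.35% of probes). In LFA compared with control all 10 were above 0 as well (34% of probes were), with a median of 0.63 against -0.28. Of these 0 passed limma's adjusted p (2.22% of probes were called higher), and 5 had an unadjusted p under 0.05 (6.83% of probes), namely Mcm3, Mcm5, Mcm6, Mcm10 and Cdc6. LFA lay wholly above control for Mcm10 and Cdc6 (4.61% of probes). The LFA intervals reached from 0.33 to 1.55 on the log2 scale for Cdc6 and from 0.17 to 1.20 for Mcm5, so a 2-fold change lay within both. These comparisons share their control mice.

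Within slides the LFA difference varied. All 10 genes were above 0 in LFA against control on slides 1 and 3, and 7 of 10 were on slide 2, where the median was 0.26. For NTL against control all 10 were above 0 on slide 3 and 8 on slide 2. On slide 3 the log2 difference was 0.74 for Cdc6 and 0.35 for Mcm5, and on slide 2 it was 1.86 and 1.30.

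No licensing gene was called with short fibres. In SFA compared with control the log2 changes ran from -0.06 to 0.94 with a median of 0.12, and 7 of 10 were above 0 (38.8% of probes were). In NTS compared with control 1 gene, Mcm10, was above 0 (43.4% of probes were), and the median was -0.20. Both comparisons had 0 licensing genes called by limma and 0 with a higher level at an unadjusted p under 0.05, which 1.09% of probes reached in SFA and 1.67% in NTS. No probe was called in either. For Mcm5 the 95% interval reached from -0.39 to 0.64 in SFA and from -0.83 to 0.20 in NTS, so neither held a 2-fold change. For other genes a 2-fold change lay within the interval, as for Cdc6 in SFA (-0.20 to 1.02), Mcm10 in SFA (-1.28 to 3.16) and NTS (-0.03 to 4.41), and Cdt1 in NTS (-1.16 to 0.48).

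Mean levels were also higher with long than with short asbestos, without a call. All 10 genes were above 0 in LFA compared with SFA (36.2% of probes were), with a median of 0.54 against -0.17, and 0 were called by limma (1.03% of probes were called higher). An unadjusted p under 0.05 was found for Mcm3, Mcm5 and Mcm6 (4.8% of probes), and Mcm5 was the gene without overlap (3.16% of probes). The length effects of the materials were compared directly, as LFA minus SFA less NTL minus NTS. That difference was -0.95 for Cdc6 (95% interval -1.82 to -0.09) and -0.74 for Mcm5 (-1.47 to -0.01), with unadjusted p of 0.0323 and 0.0481 in limma. After adjustment 0 licensing genes passed, and on the higher side 0 of all 36931 probes did. The share of all probes at an unadjusted p under 0.05 is not given here. Without the 5 arrays rich in liver transcripts these differences were -1.32 for Cdc6 and -0.44 for Mcm5 (unadjusted p in limma of 0.0289 and 0.343), and the median of LFA against SFA was 0.39 with 0 calls. LFA and NTL, given at different doses, stood at -3.31 ± 0.26 and -2.96 ± 0.46 for Cdc6 and at 0.24 ± 0.33 and 0.54 ± 0.08 for Mcm5 (mean log2 level ± SD, n = 4 each). For Mcm6 the means were 3.31 ± 0.41 and 3.32 ± 0.47. Between LFA and NTL limma called 0 of the 10 genes and 0 of all probes.

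Mcm10 did not follow the other licensing genes. Its log2 level was -2.76, -3.07, 1.29 and 2.90 in NTS and 0.61, -0.83, 1.58 and -1.82 in LFA. The control mice stood at -2.98, -2.99, -1.92 and -2.52, and NTL at -1.19, -0.69, -1.34 and -0.59. The NTS group was thus split into low and high mice, and every LFA and NTL mouse lay above every control mouse. The 5 highest Mcm10 levels, those of NTS replicates 3 and 4, LFA replicates 1 and 3 and SFA replicate 2, were on the 5 arrays with the highest liver scores. Over the 20 arrays, which share slides, Mcm10 and the liver score correlated at r = 0.79, and at 0.81 with group means removed, and the other 9 genes ranged from -0.36 to 0.07 over the arrays. With group means removed those 9 ranged from -0.65 for Mcm5 and -0.52 for Mcm2 to 0.10 for Cdt1, so these ring genes were lower where the liver score was higher. The share of liver transcripts in the Mcm10 result was not tested.

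**Figure D3:**
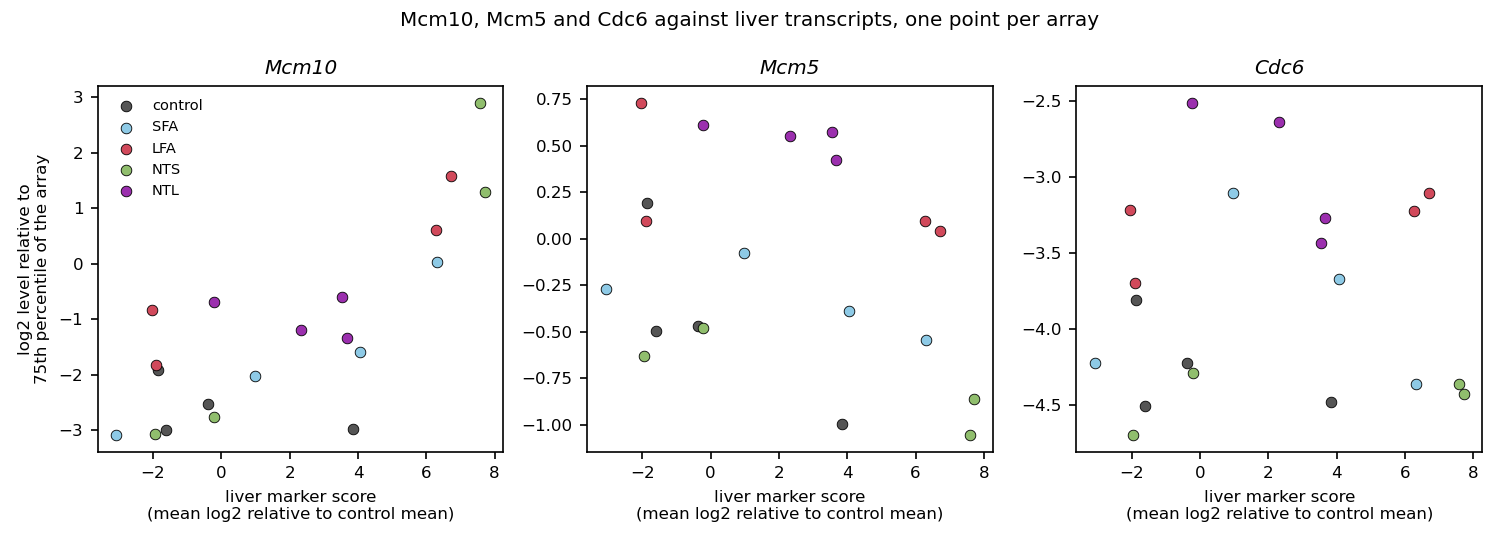
Log2 level of Mcm10, Mcm5 and Cdc6 (vertical axes) against the liver marker score of the same array (horizontal axis, mean log2 relative to the control mean), with 1 point per array coloured by group. Mcm10 is highest on the 5 arrays with liver scores above 6 (r = 0.79 over 20 arrays), and Mcm5 and Cdc6 are not highest there.

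In all mice, Mcm10 differed by 2.49 on the log2 scale between LFA and control (SE 1.06, limma adjusted p = 0.165) and by -0.54 between NTL and NTS (limma adjusted p = 0.779). With the liver score as a covariate the log2 change was -0.23 in NTL against NTS (limma adjusted p = 0.852) and 0.87 in NTL against control (limma adjusted p = 0.475, against 1.65 and 0.370 without the covariate). Leaving out the 5 arrays rich in liver transcripts removes the 5 highest Mcm10 levels, both high NTS mice among them. The remaining NTS levels of -2.76 and -3.07 fix the sign of the NTL to NTS difference, then 1.96, which is given as a description. No NTL or control array was left out, so the change in NTL against control stayed at 1.65. Its limma adjusted p was then 0.0131. That p rests on a spread shared over the groups, from which the highest Mcm10 levels had been removed, so it too is a description. The difference of LFA and control was 1.28 (limma adjusted p = 0.120).

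Most of the other 9 genes varied together from mouse to mouse. Their 36 pairs had a median correlation of 0.78 over the 20 arrays and 0.54 after group means were removed. The highest pair was Mcm3 with Mcm6, at 0.94, and 0.91 with group means removed. Mcm6 and Pcna reached 0.93 with group means removed, although Pcna itself was not called. With group means removed Mcm2 and Mcm5 correlated at 0.75 with each other. With Mcm4, Mcm6, Mcm7, Cdt1 and Pcna, Mcm2 then lay between -0.30 and -0.08 and Mcm5 between 0.01 and 0.27. Over the 15 arrays with lower liver scores the median of the 36 pairs was 0.80, and 0.56 with group means removed. The 9 pairs with Mcm10 had a median of 0.19. These points share array brightness and slides, so the values describe the arrays.

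**Figure D4:**
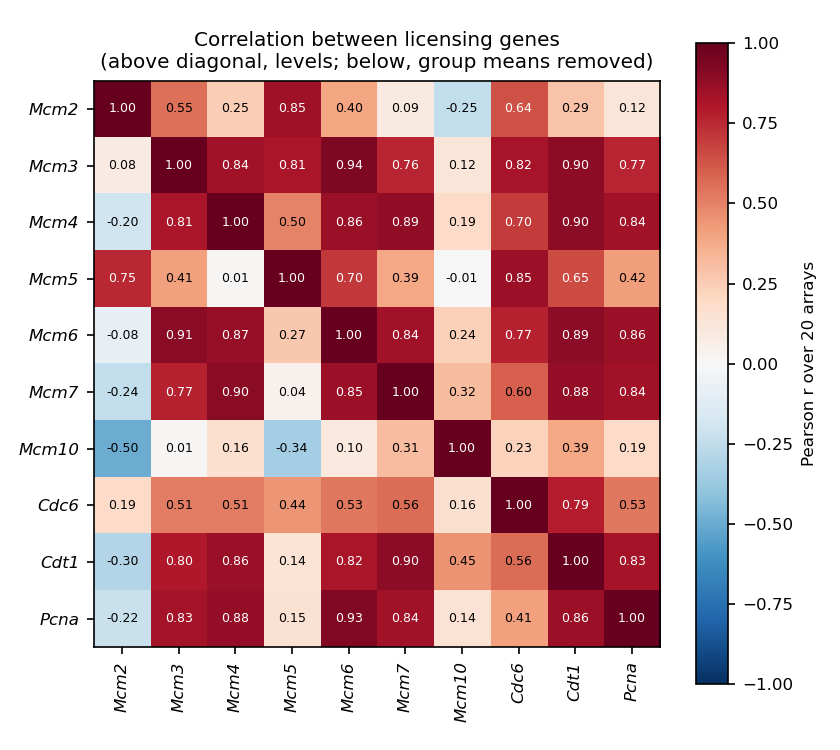
Pearson correlation between licensing genes over the 20 arrays (colour and printed value), from the levels above the diagonal and with group means removed below it. Mcm3, Mcm4, Mcm6, Mcm7, Cdt1 and Pcna form a block of high values, whereas Mcm10 lies between -0.50 and 0.45 with every other gene.

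Replication genes around the licensing step were followed by 8 lists of 80 genes by role, of which 76 were tested. In NTL compared with NTS 12 of the 76 were called higher and 0 lower (4.89% and 2.71% of all probes), with a median log2 change of 0.26 against -0.26 for all probes. In NTL compared with control 7 were called (3.63% of probes), and in LFA compared with control 5 (2.22% of probes), again with 0 lower. Without the 5 arrays rich in liver transcripts the counts were 15 higher and 1 lower (E2f7) in NTL against NTS. They were 10 in NTL against control and 5 in LFA against control. Of all probes 5.37%, 4.44% and 2.96% were then called higher. Probes called in either direction in NTL against NTS rose from 2809 to 5683. No list gene was called by limma in LFA against SFA or in either short fibre group.

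Calls among the factors that mark and control origins were near the share of all probes in NTL compared with NTS (4.89% called higher). Of the origin recognition complex, Orc2 to Orc6 were tested and 0 of 5 passed in NTL compared with NTS, with log2 changes from -0.28 for Orc5 to 0.31 for Orc6. Orc1 was well above background on 1 array and was not tested. Of 17 genes of licensing control and helicase activation, Ticrr, which prepares the helicase for firing and appears on the array as 5730590G19Rik, was called (log2 change 2.36, limma adjusted p = 0.0120). Its partner Topbp1 passed the adjusted p only (log2 change 0.90, limma adjusted p = 0.0466). Gmnn, the geminin that blocks Cdt1, had a log2 change of -0.17, and Cdc45, part of the active helicase, one of -0.31. Ticrr, Topbp1 and Dbf4 were called when the 5 arrays rich in liver transcripts were left out, beside 5.37% of all probes. Dbf4, which activates the Cdc7 kinase, stood at 1.20 and did not pass (limma adjusted p = 0.204), and Cdc7 itself was well above background on 3 arrays.

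Genes that act at the fork gave no call in all mice. Of 12 polymerase and primase genes and 14 of the clamp loader, single-strand binding and lagging-strand group, 0 passed in NTL compared with NTS, beside 4.89% of all probes, and for so few genes a count of 0 is near that share. The highest were Pole2 (log2 change 0.97) and Dna2 (0.99), with limma adjusted p of 0.0672 and 0.348. Pole2 and Prim2 of the first group and Dna2 and Rfc5 of the second were called higher without the 5 arrays rich in liver transcripts. In that setting 5.37% of all probes were called higher. Among 8 genes of nucleotide supply, Rrm2, the regulated subunit of ribonucleotide reductase, rose (1.48, limma adjusted p = 0.00263), as did Dck, a salvage kinase (1.86, limma adjusted p = 0.00448). Dck was also called against control in both LFA (1.66) and NTL (1.79).

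**Figure D5:**
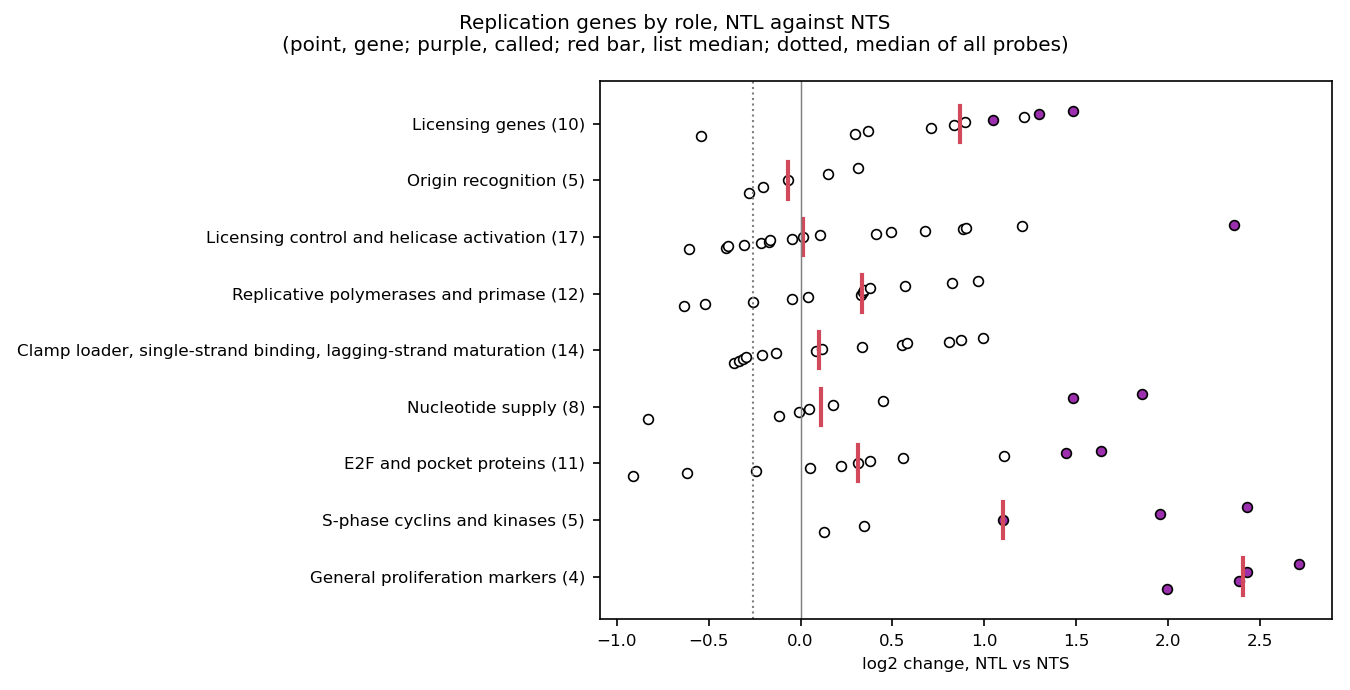
Log2 change in NTL against NTS (horizontal axis) for each tested gene of the licensing set and of 8 lists of replication genes, with the number of genes in brackets. Purple points were called, red bars are list medians and the dotted line is the median of all probes. Called genes sit in the licensing, nucleotide, E2F, cyclin and proliferation rows, with 1 in the row of licensing control, and the origin recognition, polymerase and clamp loader rows hold none.

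Among 11 E2F factors and pocket proteins, E2f1, an activator (log2 change 1.45, limma adjusted p = 0.00664), and Rbl1, which encodes p107 (1.64, limma adjusted p = 0.0173), were called higher in NTL compared with NTS. Of all probes 4.89% were called higher there. Both genes were also called in NTL against control, at 1.23 and 1.54. Without the 5 arrays rich in liver transcripts E2f7 was called lower in NTL against NTS (log2 change -1.39, limma adjusted p = 0.0424). Of 5 cyclin and kinase genes tested, Ccne1 (1.10), Ccna2 (1.96) and Cdk1 (2.43) rose in NTL compared with NTS. Ccna2 and Cdk1 were called in LFA against control too, at 1.71 and 1.40, and in NTL against control, at 1.70 and 1.92. All 4 tested proliferation markers, beside 4.89% of all probes, rose in NTL compared with NTS, with log2 changes of 1.99 for Mki67, 2.43 for Top2a, 2.39 for Ccnb1 and 2.71 for Bub1, beside 1.48 for Cdc6. Ccne1, Mki67 and Top2a were not called without the 5 arrays rich in liver transcripts, at 1.19, 2.18 and 2.19, with limma adjusted p of 0.0611, 0.0635 and 0.0621. In LFA against control Ccnb1 (2.01) and Bub1 (2.32) were called.

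Markers of several cell types also differed with long fibres. Of 11 macrophage markers, 7 were called higher in LFA against control, in NTL against control and in NTL against NTS, where 2.22%, 3.63% and 4.89% of all probes were. Without the 5 arrays rich in liver transcripts the counts were 7, 8 and 8, beside 2.96%, 4.44% and 5.37% of all probes. In that setting 1 was lower in NTL against NTS. The macrophage score of the NTL mice lay between 1.65 and 1.72 and that of the LFA mice between 0.80 and 1.88. Control and NTS mice lay between -0.21 and 0.18. Of 8 fibroblast markers, 5 were called higher in NTL against NTS, also without those arrays, and the score ran from 0.56 to 1.32 in NTL and from -0.59 to 0.06 in NTS. All 8 skeletal muscle markers were below 0 in NTL against NTS, where only 35.7% of all probes were above 0. Of these markers 1 was called lower, beside 2.71% of probes. Without those arrays 5 were called, while probes called in either direction rose from 2809 to 5683. The muscle score ran from -1.49 to -1.35 in NTL and from -0.88 to 0.34 in NTS. Correlations of the licensing genes with the macrophage score ran from 0.16 for Mcm10 to 0.87 for Mcm5 over the 20 arrays, with Cdc6 at 0.77. With group means removed they ran from -0.42 for Mcm10 to 0.49 for Mcm5, with Cdc6 at -0.04. Those with the fibroblast score then ran from -0.47 for Mcm10 to 0.62 for Mcm3. With the B and plasma cell score they ran from 0.10 for Mcm2 to 0.64 for Mcm6. Wider ranges were found with the endothelium score, from -0.78 for Cdt1 to 0.66 for Mcm2, and the satellite cell score, from -0.74 for Cdt1 to 0.67 for Mcm2. With the skeletal muscle score the range was -0.77 for Mcm10 to 0.27 for Mcm2. Of 8 B and plasma cell markers 2 were called higher in NTL against NTS (3 without those arrays), and 0 of 8 T cell markers were called there in either case. Their part in the licensing result was not tested.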

How the data were processed

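Total RNA of frozen diaphragm, 1 mouse per sample, was labelled with a single dye and hybridised to mouse arrays. The intensity values used here were deposited by the authors as scanner output, with background already subtracted by Agilent Feature Extraction 10.7.3.1, as named in the submitters' processing notes. A second deposited table gives log2 values that the authors normalized in GeneSpring, but it holds group means only and served as an alternative without a test. From the intensities, 59305 noncontrol spots per array, outlier spots (92 to 204 per array) were dropped, spots of a probe were averaged, and the log2 75th percentile of the array was subtracted. Probes well above background on at least 4 of 20 arrays were tested (53.0% to 68.1% of spots were well above background on an array). The number of arrays limits the precision.

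One model with 5 group means was fitted in limma 3.58.1 (R 4.3.3), with Benjamini-Hochberg adjustment over 36931 probes. A gene is shown by its brightest probe. Python 3.11.15, numpy 2.4.6, pandas 2.3.3 and matplotlib 3.10.9 were used for files, sequences and figures. The steps were tested on simulated data. Array correlations of 0.865 to 0.986 showed no copied array. Replicate numbers did not pair mice. Positions of probes were taken from the scanner output (NCBI37), and exons and UTRs of that build were not used here.

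The members, the 8 replication lists and 12 cell type lists, and the tests were chosen with earlier results of these data known. Named genes are all members, list genes called in LFA or NTL against control, and the members of counts of 5 or fewer. Orc5, Orc6, Topbp1, Gmnn, Cdc45, Dbf4, Pole2, Prim2, Dna2, Rfc5, E2f7, Mki67, Top2a and genes called only in NTL against NTS were named after their values were seen. Alternatives covered normalization, background, filters, probe averaging, slide, replicate number, array brightness, the samples fitted, each array left out, and an unequal-variance test over the 5 groups. A liver covariate and leaving out the 5 arrays rich in liver transcripts were chosen after seeing the data.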

Additional observations from a re-analysis of the deposited data

Results flagged for a closer look

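In sets of 4 mice, a mouse was noted when its gap to the nearest other mouse was a larger share of the range of the set than Dixon's 95% limit allows. This held for 8 of 170 sets (4.71%), and chance flags about 1 in 20. Among the licensing genes, NTL replicate 2 stood apart for Mcm4, at a log2 level of 2.91 against 1.88 to 1.98, and for Cdt1, at 1.96 against 0.94 to 1.02. LFA replicate 2 stood apart for Mcm5, at 0.73 against 0.04 to 0.10. NTS replicate 4 stood apart for Mcm7, at 2.35 against 1.71 to 1.79. Among the scores, NTL replicate 2 was apart for polymerases and primase, at 0.29 against -0.04 to -0.02. LFA replicate 2 was apart for the erythroid and bone marrow score, at -1.84 against -0.29 to -0.11, and for the mesothelium score, at -0.58 against 0.62 to 0.72. Control replicate 2 was apart for the endothelium score, at -0.95 against 0.29 to 0.33.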

How the results depend on the processing

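In LFA against control, LFA against SFA and both short fibre comparisons, 0 of 10 licensing genes were called under every setting that gave a count. In NTL against control 1 gene (Cdc6) was called, and the count was 0 with normexp correction, with a filter on all 20 arrays (where Cdc6 was not tested) and with array brightness as a covariate. It was 2 with quantile normalization or a liver covariate (Mcm5 added), and 2 in a fit of the compared groups alone or without the 5 arrays rich in liver transcripts (Mcm10 added). In the last of these settings Mcm10 passed through the choice of arrays, since its log2 change did not move. Leaving out 1 array at a time gave 1 to 2, with Mcm5 added without control replicate 3 (log2 change 1.19, limma adjusted p = 0.00725) or NTL replicate 3 (1.02, limma adjusted p = 0.0366). In NTL against NTS 3 were called. The count was 5 with quantile normalization (Mcm6 and Cdt1 added) and 1 with slide as a block (Cdc6). With array brightness as a covariate it was 4 (Mcm6 added). The log2 changes were then 1.29 for Cdc6, 1.12 for Mcm5 and 1.31 for Mcm3, with limma adjusted p of 0.0437, 0.0363 and 0.0222. It was 5 without the 5 arrays rich in liver transcripts (Mcm10 and Cdt1 added), where 5.37% of all probes were called higher. Leaving out 1 array at a time gave 2 to 4. Mcm3 was lost without NTS replicate 2 (limma adjusted p = 0.0550), NTL replicate 2 (0.0697) or NTL replicate 4 (0.0544), and Cdt1 was added without control replicate 2 (0.0404) or NTS replicate 4 (0.0111). Mcm10 in NTL against NTS reversed to 1.96 without the 5 arrays rich in liver transcripts, which are the 5 with the highest Mcm10 levels, so that sign follows from the choice of arrays. It was -0.23 with the liver covariate. Where no value shows it, the cause was not tested. With the replicate number as a block the counts were 1 in NTL against control, 3 in NTL against NTS and 0 in LFA against control. That block changed no call, and same-numbered mice had deviations correlated between -0.68 and 0.69. An unequal-variance test over the 5 groups, named in the methods for probes already past a 2-fold change, was run here on all 36779 probes without missing values and gave adjusted p of 0.0220 for Mcm5, 0.0450 for Cdc6 and 0.0682 for Mcm3. With a 2-fold difference it left 2 genes called in NTL against NTS (Mcm5 and Cdc6) and 1 in NTL against control. The authors' group means gave no count. Signals near background limit Cdc6, which was well above background on 17 of 20 arrays.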

Other observations

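The genes that varied most like the licensing genes were sought among 25396 other genes, by Pearson correlation with the mean of the 10 genes over the 20 arrays. The closest were Cdca3 (r = 0.966), Zwilch (0.966), Trip13 (0.965), Ccnb2 (0.950) and Cdca5 (0.950). With group means removed they were Zwilch (0.951), Cdca3 (0.946), Kif20b (0.941), Helb (0.940) and Brca2 (0.928). The arrays share slides and brightness, so these values describe the arrays.

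Of the cell type markers not described above, mesothelium had 1 gene called higher in NTL against NTS and the erythroid and bone marrow list had 1 called lower in NTL against control. For granulocytes, satellite cells, endothelium, liver and lung, limma called 0 genes in LFA or NTL against control and in NTL against NTS. Without the 5 arrays rich in liver transcripts mesothelium had 0 called, the erythroid and bone marrow list 3 lower in NTL against control, and satellite cells 1 lower and liver 1 higher in NTL against NTS.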
